A study of Mus musculus with 24 samples.

Results

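The cytosolic ribosomal protein genes encode the protein parts of the ribosomes that translate nuclear mRNAs, and their transcripts were followed here in hepatocytes of aged mice on a normal diet (ND), a high-fat diet (HFD), or HFD with rapamycin. Members were taken by gene name: Rpl or Rps followed by digits and at most a short paralog suffix, plus Rpsa, Rplp0, Rplp1 and Rplp2, with processed copies named -ps and the Rps6 kinases left out. The rule found 89 of the 55421 genes in the count table, 53 named for the large (60S) subunit and 36 for the small (40S) subunit. The samples were polyA RNA from hepatocytes of male C57BL/6J mice, isolated by 2-step perfusion of the liver. From 4 months of age the mice ate ND with vehicle or ND with rapamycin in a Eudragit-encapsulated form (eRapa, 42 ppm). At 18 months the vehicle mice stayed on ND (ND+veh, n = 8) or changed to HFD with 60% of calories from fat (HFD+veh, n = 7), and the rapamycin mice changed to HFD with the drug (HFD+eRapa, n = 9), each for 9 weeks. No group had eRapa on ND, so the effect of the drug itself and that of the drug under HFD cannot be told apart. Below, the diet comparison is HFD+veh relative to ND+veh, the drug comparison is HFD+eRapa relative to HFD+veh, and the combined comparison is HFD+eRapa relative to ND+veh.

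Ribosomal proteins assemble with rRNA into the large subunit, which forms peptide bonds, and the small subunit, which decodes the mRNA. Their mRNAs are among the most abundant in any growing cell and belong to the TOP class, which begins with a C followed by an unbroken stretch of pyrimidines (a 5′ terminal oligopyrimidine tract). Through the binding protein LARP1, the kinase complex mTORC1, the target of rapamycin, is known to set how efficiently TOP mRNAs are translated, a step that counts of total mRNA do not measure.

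The 24 libraries held 17739252 to 25945134 counts on genes and carried a single batch label. The labels give each library a replicate number and no further identity, so p-values measure the spread between these libraries. All 8 hepatocyte markers were detected in each group, with a summed level of 76515 to 150147 CPM (counts relative to the library total) in ND+veh, 114658 to 146675 in HFD+veh and 56450 to 123846 in HFD+eRapa. Markers of other cells moved with the groups: the summed level of the 9 macrophage markers was 39.7 to 1213 CPM (median 220.3) in ND+veh, 139 to 5650 CPM (median 2653) in HFD+veh and 14.2 to 903 CPM (median 200.1) in HFD+eRapa, with all 9 detected in each group. Within HFD+veh, libraries 1 and 2 were the exceptions, with 139 and 170 CPM, against 774 to 5650 CPM in the other 5. In the drug comparison 7 of 9 macrophage, 7 of 7 endothelial and 7 of 7 stellate cell markers were called lower by edgeR. In the diet comparison 3 of 9 macrophage, 1 of 7 endothelial and 2 of 7 stellate cell markers were called higher. Among all tested genes 21.1% were called lower in the drug and 16.0% higher in the diet comparison. All 4 erythroid markers were called higher in the diet comparison and 0 were called in the drug comparison. The neutrophil marker Ly6g was at 0 in ND+veh and HFD+eRapa. In bulk RNA a lower share of a cell type and less RNA per cell cannot be told apart, and the part these cells have in the results below was not tested except where a value with the marker score is given.

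By FPKM, which is per length, the members were high and uneven. Of 83 tested members with a value above 0, 75 had a mean FPKM above 100 over the 24 libraries and 41 a mean above 300, with a median of 295. Rplp1, an acidic stalk protein, led with a mean of 1153 FPKM (SD 271), ahead of Rps27 with 953 (SD 376) and Rpl10 with 903 (SD 152). These leading levels overlapped between libraries, from 683 to 1809 FPKM for Rplp1 and from 444 to 2113 FPKM for Rps27. Rpl13 was listed at 0 FPKM in all 24 libraries although its mean count was 4143, and Rps12l1, with 0 counts throughout, was listed at a mean of 3.44 FPKM. The FPKM of these 2 genes was left out, except from the share of summed FPKM given below, which includes both as listed. By counts, 84 members passed the filter on low counts, 49 large and 35 small. The other 5 were Rps12l1, Rpl32l (at most 13 counts in a library), Rpl10l (3 counts in all), Rpl39l (22 counts in all) and Rpl3l (29 counts in all). Rpl3l, Rpl10l and Rpl39l are the copies of Rpl3, Rpl10 and Rpl39 known from muscle or testis. In the annotation 83 members were protein coding, and the other 6 (Rpl32l, Rpl6l, Rps12l1, Rps3a2, Rps3a3 and Rps4l) were processed pseudogenes.

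Promoter windows give the genomic sequence around annotated transcription starts of the members. The starts used in these hepatocytes were not measured, so a run near an annotated start need not open the mRNA. RefSeq start windows on GRCm38.p6 were found for 64 of the 89 members, and in 45 of the 64 (70.3%) a run of at least 6 pyrimidines opening with C began within 25 bases of the start, against 35.6% of 10306 other tested genes. The windows below are 30 bases long, 5′ to 3′ on the strand of the gene, for genes whose levels are described in the next paragraphs and for Rps6. Capitals mark the pyrimidine run nearest the annotated start, and no capitals mean that none was found.
Rpl13a, chr7:45128722-45128751, minus strand: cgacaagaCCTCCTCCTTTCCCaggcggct
Rpl13, chr8:123102326-123102355, plus strand: tgacgtcaCTTCCCTTTCgcctgattttga
Rpl18, chr7:45718056-45718085, plus strand: tgcgtctcgcaggccgCTCTTTCCCCgccc
Rpl7a, chr2:26910792-26910821, plus strand: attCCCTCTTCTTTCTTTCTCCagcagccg
Rpl4, chr9:64173362-64173391, plus strand: tgacaagtCTTTCCTTTTCCTgtgggagca
Rpsa, chr9:120127771-120127800, plus strand: atttccggccgcccgtCCTTTCgcgctacc
Rps6, chr4:86857353-86857382, minus strand: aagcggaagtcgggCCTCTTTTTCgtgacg
Rpl39, chrX:37085208-37085237, minus strand: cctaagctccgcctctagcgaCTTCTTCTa
Rplp0, chr5:115559452-115559481, plus strand: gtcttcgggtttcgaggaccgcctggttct
Rpl7l1, chr17:46782642-46782671, minus strand: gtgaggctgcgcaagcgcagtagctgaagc
Runs were 6 to 20 bases long among the members. The letters CCGGAAG, the core bound by ETS factors, were found on either strand within 250 bases before to 50 bases after the start in 39.1% of members and 17.8% of other tested genes. The letters AAGATGGC, which YY1 binds and which can overlap the end of the former, were found in 7.81% of members (5 of 64) and 4.62% of other tested genes. The letters GGGCGG, a GC box, were found in 59.4% of members and 62.2% of other tested genes. In the diet comparison the median log2 fold change was -0.06 for 43 expressed members with a run and -0.03 for 17 without one, and in the drug comparison it was 0.08 and 0.07. Of the 9 members called in either comparison, 8 had a window and 6 of these a run.

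Summed over the family, the share of a library's counts did not separate the groups. All members together took 1.099% to 1.67% of counts in ND+veh (median 1.20%), 0.760% to 1.81% in HFD+veh (median 1.21%) and 0.903% to 1.45% in HFD+eRapa (median 1.22%). The ranges overlapped throughout, and HFD+veh held both the lowest and the highest library of the series. For the large subunit the means were 0.757% ± 0.107 (SD, n = 8), 0.703% ± 0.187 (SD, n = 7) and 0.723% ± 0.0906 (SD, n = 9) in ND+veh, HFD+veh and HFD+eRapa. For the small subunit they were 0.506% ± 0.0839, 0.498% ± 0.169 and 0.482% ± 0.0579 in the same order. The difference between the HFD+veh and ND+veh means of the whole family, -0.06 percentage points, was smaller than the SD of 0.247 points within groups. It was 0.011 points without HFD+veh library 2 and -0.16 without HFD+veh library 6. As a share of summed FPKM the difference was -0.56 points. That share is on another scale, 3.42% ± 0.409 (SD) in ND+veh and 2.86% ± 0.862 in HFD+veh. HFD+veh library 2 stood at 1.19% of summed FPKM.

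**Figure D1:**
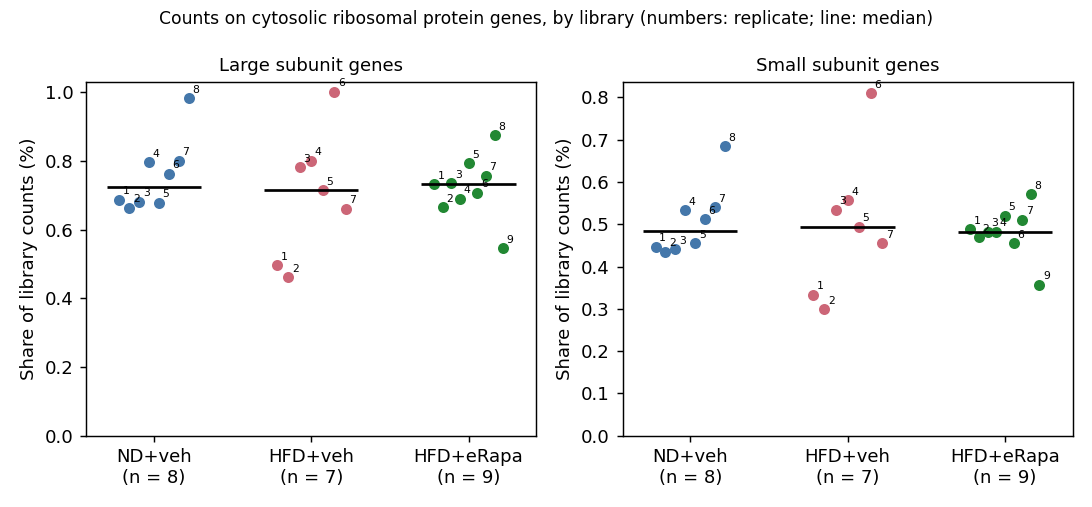
Share of each library's counts (%, y axis from 0) on large subunit (left) and small subunit (right) ribosomal protein genes in the 3 groups. Each point is 1 library with its replicate number, and the line is the group median. HFD+veh libraries 1 and 2 sit lowest and HFD+veh library 6 highest in both panels, and the medians lie close together.

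Large and small subunit genes moved together within libraries. The ratio of large to small subunit counts was 1.44 to 1.55 in ND+veh, 1.42 to 1.55 in HFD+eRapa and 1.44 to 1.54 in 6 of 7 HFD+veh libraries, with HFD+veh library 6 at 1.24. As a family level, the median over members of log2 CPM minus the member's mean was taken in each library. It was lowest in HFD+veh library 2 (-0.78), HFD+eRapa library 9 (-0.52) and HFD+veh library 1 (-0.40), and highest in ND+veh library 8 (0.55), HFD+veh library 6 (0.55) and HFD+eRapa library 8 (0.43). After group means were removed, the median Pearson correlation over 3240 pairs of members was 0.843 across the 24 libraries, a description of points that share library and depth. Rps4l (-0.16) and Rpl7l1 (0.18) had the lowest correlation with the rest of the family, followed by Rpl8 (0.40), Rpl13a (0.44) and Rpl7a (0.50).

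**Figure D2:**
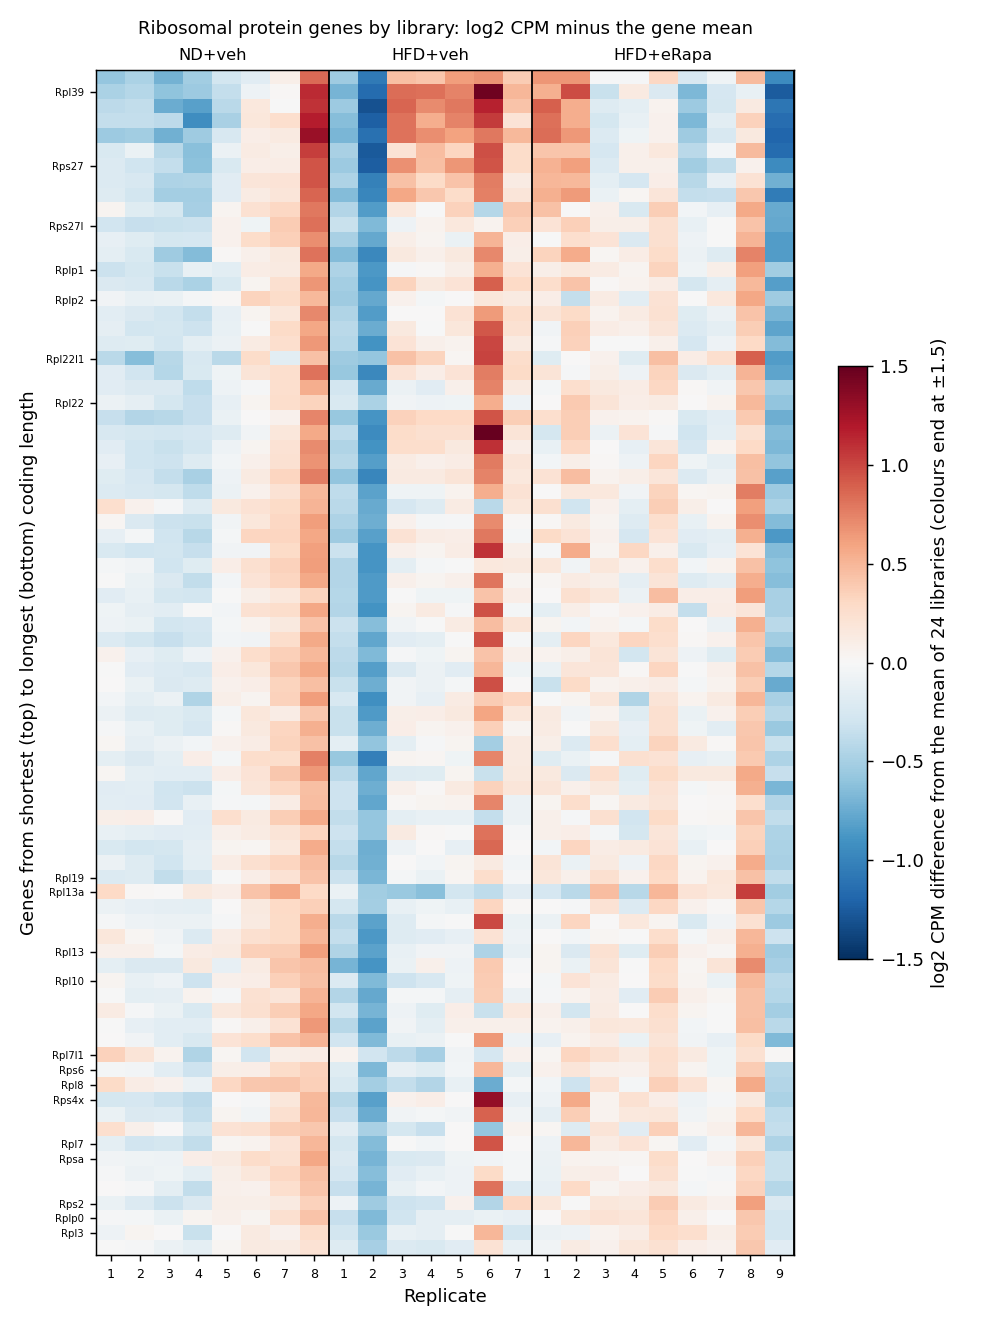
Log2 CPM of 80 expressed coding members (rows, shortest coding length at the top) in 24 libraries (columns, by group and replicate), as the difference from each gene's mean over the libraries, with names shown for a part of the genes. Red is higher and blue lower. Columns are mostly of 1 colour, with HFD+veh 2 and HFD+eRapa 9 blue and ND+veh 8 red, and in HFD+veh 3 to 5 the top rows are red while many lower rows are pale blue.

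The diet comparison asked how these genes differed after HFD. A small set of mostly large subunit genes was lower: Rpl13a, Rpl8, Rpl13, Rpl18, Rpl7a and Rplp0 of the large subunit and Rpsa of the small. That was 7 of 84 members called lower and 0 called higher (8.33%) by edgeR's quasi-likelihood test at a Benjamini-Hochberg adjusted p under 0.05 over all genes, where 25.9% of 13847 tested genes were called in either direction and 9.86% were called lower. The share of members called lower was thus near that of all genes, and the 0 called higher stood beside 16.0% of all genes. At an unadjusted p under 0.05 there were 11 of 84 members, where at least 25.9% of all genes passed, since adjusted calls also pass it. DESeq2 and limma voom also called no member higher. Estimates were above 0 for 35 of 84 members (54.1% of all genes). By subunit, 6 of 49 large and 1 of 35 small members were called. The median log2 fold change was -0.09 over large and -0.00 over small subunit members and -0.05 over both, beside 0.05 over all tested genes. The median over both was above 0 without HFD+veh library 2 (0.05), HFD+veh library 1 (0.02) or ND+veh library 8 (0.04), and it was -0.21 without HFD+veh library 6.

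Rpl13a, a large subunit protein that also has a known part in translational silencing after interferon, stood at 84.5, 97.7 and 126 CPM (lowest, median, highest) in ND+veh, at 54.3, 64.6 and 78.1 CPM in HFD+veh and at 58.3, 93.5 and 172 CPM in HFD+eRapa. The HFD+veh libraries all lay under the ND+veh libraries, and the HFD+eRapa libraries spanned both. Its log2 fold change was -0.61 (SE 0.18, adjusted p = 0.020 by edgeR). Rpl13 was the other member of the 2 whose groups did not overlap, against 2.44% of all tested genes, with 190.8 to 298 CPM (median 212) in ND+veh and 112 to 188 CPM (median 179.8) in HFD+veh and a log2 fold change of -0.50 (SE 0.14, adjusted p = 0.017 by edgeR).

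Rpl8, a core protein near the peptidyl transferase centre, had 199 to 282 CPM (median 261) in ND+veh, 126 to 208 CPM (median 165) in HFD+veh and 157 to 315 CPM (median 216) in HFD+eRapa. Its 7 HFD+veh libraries were all under the ND+veh median, and 7 of 8 ND+veh libraries lay above the HFD+veh range. The gene lies at chr15:76904078-76906314 on the plus strand (GRCm38). The log2 fold change was -0.57 (SE 0.14), and its adjusted p of 0.0055 by edgeR was the smallest in the family. Rpl18 (-0.42, SE 0.12) and Rpl7a (-0.42, SE 0.13) followed with adjusted p values of 0.015 and 0.022 by edgeR, again with all 7 HFD+veh libraries under the ND+veh median. Rpl28 lay just past the threshold, with a log2 fold change of -0.38 (SE 0.15, adjusted p = 0.061 by edgeR).

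The number called changed with the tool and with single libraries. With limma voom and a weight per group, 1 of 84 members was called lower, Rpl8, whereas DESeq2 called 9. Without ND+veh library 4 the count was 12, all lower, and without ND+veh library 8 it was 8, of which 6 were lower and Rpl39 and Rps29 were higher.

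**Figure D3:**
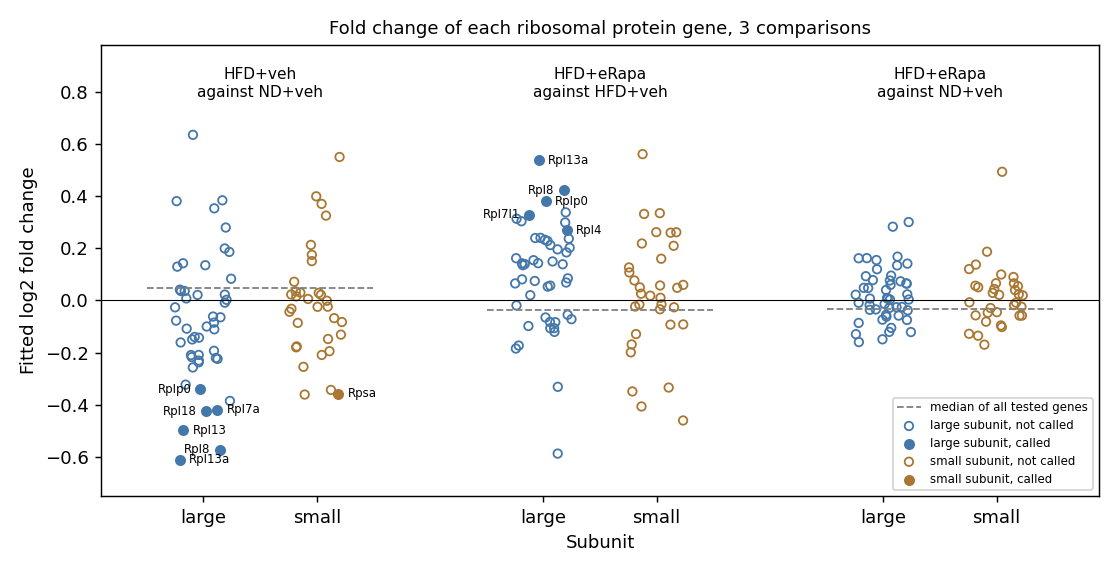
Fitted log2 fold change (y axis) of 81 expressed members in the diet, drug and combined comparisons, large subunit in blue and small subunit in brown. Filled and named points had an edgeR adjusted p under 0.05, open points did not, and the dashed line is the median of all tested genes. Named points lie below 0 in the diet comparison and above 0 in the drug comparison, and there are none in the combined comparison.

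Rplp0, which anchors the stalk that recruits translation factors, had 341 to 494 CPM (median 377) in ND+veh, 232 to 343 CPM (median 333) in HFD+veh and 302 to 486 CPM (median 412) in HFD+eRapa. It was lower after HFD, with a log2 fold change of -0.34 (SE 0.11, adjusted p = 0.025 by edgeR). Its stalk partners Rplp1 and Rplp2 were not called, at 0.00 (SE 0.18) and -0.22 (SE 0.16) in the diet comparison and 0.14 (SE 0.17) and 0.14 (SE 0.15) in the drug comparison. Rpsa, also known as the laminin receptor precursor, had 303 to 479.5 CPM (median 348) in ND+veh and 198 to 315 CPM (median 276) in HFD+veh. Its log2 fold change was -0.36 (SE 0.12, adjusted p = 0.030 by edgeR), and the call was lost without ND+veh library 6, ND+veh library 8 or HFD+veh library 2, where the adjusted p reached 0.058. With eRapa it had 256 to 412 CPM (median 330.0), and its log2 fold change in the drug comparison was 0.26 (SE 0.11, adjusted p = 0.084 by edgeR).

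Rps6, whose phosphorylation by S6 kinase is the usual readout of mTORC1 activity, was called in none of the 3 comparisons. Its level was 143 to 226 CPM (median 181) in ND+veh, 111 to 252 CPM (median 161) in HFD+veh and 133 to 232 CPM (median 186) in HFD+eRapa, so the groups overlapped. The log2 fold change was -0.13 (95% interval -0.40 to 0.14) in the diet, 0.16 (-0.10 to 0.42) in the drug and 0.03 (-0.22 to 0.28) in the combined comparison.

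**Figure D4:**
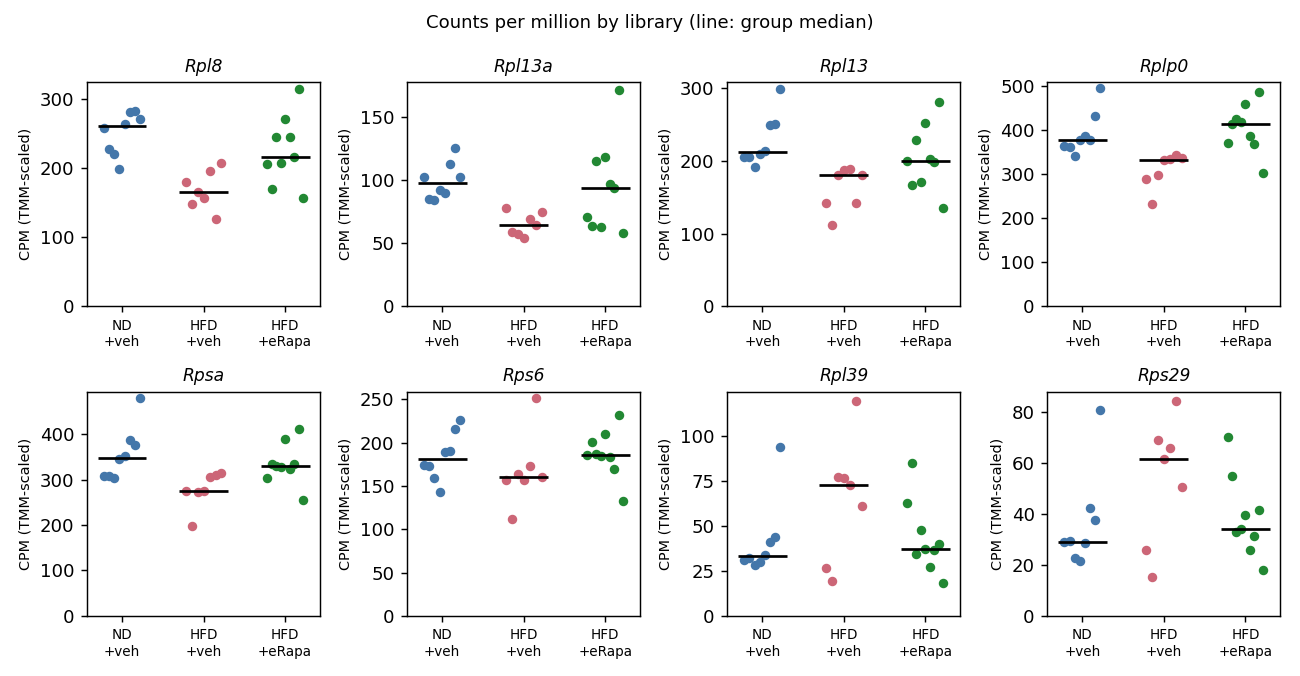
CPM (TMM-scaled, y axis from 0) of 8 members in each library of the 3 groups, with the line at the group median. For Rpl8, Rpl13a, Rpl13, Rplp0 and Rpsa the HFD+veh median is the lowest of the 3. For Rpl39 and Rps29 it is the highest, with HFD+veh libraries 1 and 2 low and ND+veh library 8 high.

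The drug comparison asked what differed with eRapa under the same diet. The members called were higher with eRapa and all of the large subunit: Rpl13a, Rpl8, Rplp0, Rpl7l1 and Rpl4, 5 of 84 (5.95%) by edgeR, with 0 called lower. Among all tested genes 32.0% were called, 10.9% higher and 21.1% lower, so the members' share called higher was under that of all genes. At an unadjusted p under 0.05 there were 12 of 84 members, where at least 32.0% of all genes passed. No member had groups without overlap (2.59% of all genes), and 54 of 84 estimates were above 0 (46.8% of all genes). The median log2 fold change was 0.14 over large and 0.02 over small subunit members, beside -0.04 over all tested genes. Over all members the median was 0.07, but with total counts in place of TMM scaling it was -0.04, with -0.13 over all genes. It was -0.02 without HFD+veh library 2 and 0.22 without HFD+veh library 6.

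For Rplp0 the HFD+eRapa libraries exceeded the HFD+veh median in 8 of 9 cases, and its log2 fold change was 0.38 (SE 0.11, adjusted p = 0.0086 by edgeR). Rpl8 rose by 0.42 (SE 0.13, adjusted p = 0.018 by edgeR), again in 8 of 9 libraries. For Rpl13a the rise was 0.54 (SE 0.18, adjusted p = 0.026 by edgeR), but 6 of 9 libraries lay above the HFD+veh median, and without HFD+eRapa library 8, at 172 CPM, the adjusted p was 0.060. Of 14 alternatives other than leaving out 1 library, 14 called Rplp0, 11 called Rpl8 and 8 called Rpl13a. Neither Rpl8 nor Rpl13a was called with limma voom or with the immune marker covariate. All 3 genes were also among those called lower after HFD, and both comparisons share the HFD+veh libraries.

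Rpl7l1, a paralog of Rpl7, had 61.0 to 79.7 CPM (median 70.2) in HFD+eRapa and 45.4 to 67.1 CPM (median 53.6) in HFD+veh. All 9 HFD+eRapa libraries lay above the HFD+veh median, and the log2 fold change was 0.33 (SE 0.11, adjusted p = 0.021 by edgeR). The call was lost without HFD+veh library 4 (adjusted p = 0.051 by edgeR), with the immune marker covariate (0.24, adjusted p = 0.26 by edgeR) and on log2(FPKM + 1) (0.19, adjusted p = 0.16 by limma). Rpl4, which lines the peptide exit tunnel, had 383 to 571 CPM (median 462) and 304 to 500.0 CPM (median 377) in the same groups. It rose by 0.27 (SE 0.10, adjusted p = 0.036 by edgeR), with the call lost in 5 of 24 fits that each left out 1 library. Of 14 other alternatives 7 called Rpl4. Those without the call included limma voom, total counts, the immune marker covariate and deposited FPKM. Small subunit members were not called in the main fit, the nearest being Rps2 (0.33, SE 0.13, adjusted p = 0.056 by edgeR) and Rps4l (0.56, SE 0.24, adjusted p = 0.076 by edgeR).

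The number called ranged from 3 without HFD+eRapa library 8 to 10 without HFD+veh library 7 or without HFD+eRapa library 9, and it was 9 without ND+veh library 1 or 4 and 8 without HFD+veh library 6. It was 2 with limma voom (Rpl7l1 and Rplp0) and 9 with DESeq2, each time with no member lower. The 9 included the small subunit member Rps2, which some fits without 1 library also called. With a replicate block 11 were called, among them Rps2, Rps10 and Rps4l. Rplp0 was called under every alternative run for this comparison.

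The combined comparison asked how the members in HFD mice given the drug stood relative to ND controls. By edgeR 0 of 84 members were called, where 13.5% of all tested genes were, 6.93% higher and 6.54% lower. No member had groups without overlap (3.37% of all genes), and 46 of 84 estimates were above 0 (45.3% of all genes). At an unadjusted p under 0.05 there was 1 of 84 members, Rps4l, where at least 13.5% of all genes passed. Rps4l had 9.52 to 21.5 CPM (median 14.7) in HFD+eRapa and 6.90 to 14.6 CPM (median 9.84) in ND+veh. Its log2 fold change was 0.49 (SE 0.23, adjusted p = 0.17 by edgeR). DESeq2 and limma voom also called 0, and limma on log2(FPKM + 1) called 1, Rps3, lower. For 73 of 81 expressed members the approximate 95% interval of the fold change lay within 1.5-fold in either direction. The median was 0.01 over all members beside -0.03 over all tested genes, and it was -0.07 with total counts and -0.10 on log2(FPKM + 1). Rpl22l1 (0.28, SE 0.22) and Rpl19 (0.15, SE 0.13) were the large subunit members with the smallest adjusted p, 0.46 and 0.49 by edgeR, and Rps2 stood at 0.19 (SE 0.13).

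The fold changes of members varied with coding length. Over 80 expressed coding members, Spearman's rho between coding length and log2 fold change was -0.63 in the diet, 0.63 in the drug and -0.16 in the combined comparison, while over 12449 coding genes tested it was -0.01, -0.08 and -0.14. These are descriptions across genes that share libraries, and the diet and drug comparisons share the HFD+veh libraries. Of the 26 members with the shortest coding sequences (138 to 399 bases), 21 had estimates above 0 in the diet comparison, with a median of 0.14 and 0 called. Of the 26 with the longest (588 to 1257 bases), 3 had estimates above 0, with a median of -0.21 and 6 called. The 612 tested genes in the short range had a median of 0.16 and the 4012 in the long range one of 0.02. In the drug comparison the members' medians were -0.11 for the shortest, where 9 of 26 were above 0, and 0.22 for the longest, where 23 of 26 were and 5 were called. Over all tested genes of the same lengths they were 0.03 and -0.00.

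Rpl39, a very short protein of the exit tunnel wall, had 28.5 to 94.2 CPM (median 33.1) in ND+veh, 19.4 to 120 CPM (median 73.0) in HFD+veh and 18.2 to 85.4 CPM (median 37.4) in HFD+eRapa. Rps29, a small zinc-binding protein, had 21.4 to 80.4 CPM (median 28.97), 15.2 to 84.3 CPM (median 61.6) and 17.8 to 70.1 CPM (median 34.1). For both genes 5 of 7 HFD+veh libraries were high and libraries 1 and 2 low, ND+veh library 8 stood far above its group, and the groups overlapped. The log2 fold change in the diet comparison was 0.63 (SE 0.35, adjusted p = 0.18 by edgeR) for Rpl39. For Rps29 it was 0.55 (SE 0.33, adjusted p = 0.22 by edgeR). Neither gene was called in the main fit, and both were called higher without ND+veh library 8.

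In each library the median level of the shortest members minus that of the longest separated most libraries of HFD+veh from most of ND+veh. It was -0.28 to -0.04 in 7 ND+veh libraries and 0.31 in library 8. It was 0.26 to 0.51 in HFD+veh libraries 3 to 7 and -0.22 in libraries 1 and 2, and -0.38 to 0.31 (median -0.09) in HFD+eRapa. The libraries with values of 0.26 or more had macrophage marker sums of 774 to 5650 CPM in HFD+veh 3 to 7, 1213 CPM in ND+veh 8, and 495 and 903 CPM in HFD+eRapa 1 and 2 (0.26 and 0.31). HFD+veh 1 and 2 had 139 and 170 CPM, but ND+veh 6 with 693 CPM (-0.04) and HFD+eRapa 4 with 581 CPM (-0.01) did not have high values. With a score over macrophage, lymphocyte and neutrophil markers as a covariate in the edgeR fit, the members' median was -0.32 in the diet and 0.39 in the drug comparison, with 6 called lower and 3 called higher. Base composition moved with the fold change as well: rho with the GC content of the transcript was -0.44 over members and -0.34 over all coding genes in the diet comparison, and 0.41 and 0.21 in the drug comparison. Length and GC content of members were little related (rho 0.15), and the part of either in the calls was not tested.

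**Figure D5:**
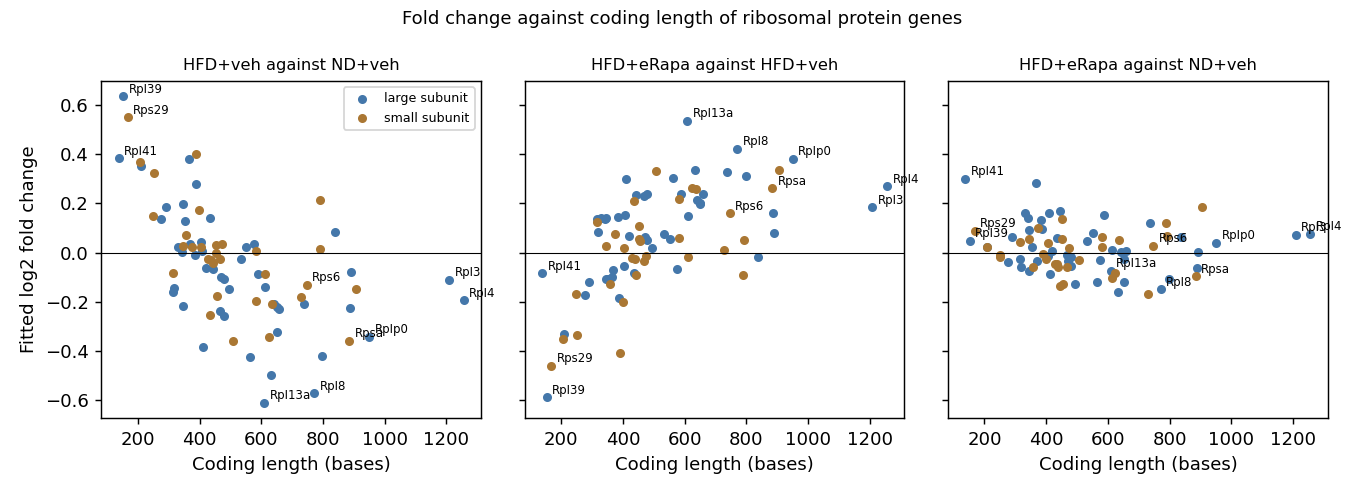
Fitted log2 fold change (y axis) of 80 expressed coding members against coding length in bases (x axis) for the 3 comparisons, large subunit in blue and small subunit in brown. Points fall from upper left to lower right in the diet comparison (rho -0.63), rise in the drug comparison (rho 0.63) and lie nearly flat in the combined one (rho -0.16).

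Paralogs of ribosomal proteins were compared with their main copies as a ratio within each library, which no scaling between libraries can move. Rpl22l1, a paralog whose level is known to respond to that of Rpl22, had a log2 ratio to Rpl22 of -2.50 ± 0.28 (SD, n = 8) in ND+veh, -2.15 ± 0.31 (SD, n = 7) in HFD+veh and -2.37 ± 0.29 (SD, n = 9) in HFD+eRapa. The diet difference of 0.35 had p = 0.042 by a two-sided exact permutation test and p = 0.30 after Benjamini-Hochberg adjustment over 9 tests. Rps27l, a p53-induced copy of Rps27, had a log2 count ratio to Rps27 of 0.98 ± 0.20, 0.67 ± 0.54 and 1.05 ± 0.27 in ND+veh, HFD+veh and HFD+eRapa, with HFD+veh libraries running from 0.02 to 1.49. The Rpl7l1 to Rpl7 ratio was -2.05 ± 0.35, -2.29 ± 0.54 and -1.99 ± 0.20 in the 3 groups in the same order. None of the 9 ratio tests passed the adjustment (exact permutation, adjusted p 0.30 to 0.63). Rpl3 (-0.11, SE 0.13), Rpl10 (-0.21, SE 0.14) and Rps4x (0.21, SE 0.22) were not called in the diet comparison. Reads of members can also map to processed copies of near-identical sequence. The 309 genes named -ps took 0.00410% to 0.0102% of counts. How shared reads were counted is not given in the sources used here, so the levels of members with such copies are uncertain by an amount that was not measured.

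Other genes of translation were read from the same fit. Of 16 TOP mRNAs for translation factors and related proteins, 4 were lower and 1 was higher in the diet comparison (Nap1l1, 0.54, SE 0.18, adjusted p = 0.031 by edgeR). The lower ones were Eef2, the elongation factor that moves the ribosome along the mRNA (-0.55, SE 0.11, adjusted p = 0.0019 by edgeR), Eif3f (-0.53), Eef1g (-0.36) and Eif4b (-0.28). In the drug comparison 5 were higher and 0 lower: Eef2 (0.61, SE 0.11, adjusted p = 0.00052 by edgeR), Eif3f (0.50), Eif4b (0.41), Eef1d (0.30) and Pabpc1 (0.24). In the combined comparison Nap1l1 was called higher (0.60). The share called was 31.2% in both the diet and the drug comparison, beside 25.9% and 32.0% of all genes in either direction. By direction, the 4 lower and 1 higher in the diet comparison stood beside 9.86% and 16.0% of all genes. The 5 higher and 0 lower in the drug comparison stood beside 10.9% and 21.1%. Whether the list differs from all genes was not tested. The list's medians were -0.10, 0.21 and 0.08 in the diet, drug and combined comparisons, beside 0.05, -0.04 and -0.03 over all tested genes.

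Of 10 genes for mTORC1, S6 kinases, the cap-binding protein, its inhibitors and LARP proteins, 4 were lower and 0 higher in the diet comparison. Among all genes 9.86% were lower and 25.9% were called. The 4 were Eif4ebp2 (-0.76) and Eif4ebp1 (-0.54), inhibitors of the cap-binding protein, Larp1 (-0.64), the TOP mRNA binding protein, and Rptor (-0.41), the mTORC1 scaffold. Eif4ebp2 (0.67), Mtor (0.56) and Rptor (0.55) were higher in the drug comparison, 3 of 10 beside 10.9% of all genes higher and 32.0% called. Mtor (0.40) was also higher in the combined comparison. The 8 snoRNA host genes of the TOP class had 0 calls in the 3 comparisons by edgeR. At an unadjusted p under 0.05 there was 1, in the combined comparison, where at least 13.5% of all genes passed. Calls of the host genes by other tools were not read. Of 10 genes for ribosomal protein chaperones and ribosome quality control, Zfp598 was lower after HFD (-0.66) and Grwd1 (0.42) and Bccip (0.24) were higher with eRapa. In these comparisons 25.9% and 32.0% of all genes were called, with 9.86% lower after HFD and 10.9% higher with eRapa.

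The 78 mitochondrial ribosomal protein genes, which build a separate ribosome for the mitochondrial genome, were read in the same way. In the diet comparison 4 of them were higher (Mrpl42, Mrps33, Mrpl13 and Mrps9) and 4 lower (Mrpl53, Mrps34, Mrpl38 and Mrps18a), 10.3% in all beside 25.9% of all tested genes. In the drug comparison 17 were higher and 0 lower (21.8%, beside 10.9% of all genes higher and 21.1% lower), with a median log2 fold change of 0.21 against 0.07 over cytosolic members. Mrps34 (0.61) and Mrpl12 (0.58) had the largest estimates among the 17. In the combined comparison 8 were higher and 0 lower (10.3%, beside 13.5% of all genes in either direction), with a median of 0.20 against 0.01 over cytosolic members. Whether the 2 families differ was not tested.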

How the data were processed

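PolyA RNA of 24 hepatocyte libraries was aligned by the authors to mm10 with STAR and counted per gene with HTSeq 0.11.2 (per the labels and the study's methods). Values were deposited as raw counts per gene and as FPKM from Cufflinks. Strand and shared-read settings are not given in the sources used here. The deposited counts were filtered by group (filterByExpr), TMM-scaled and fitted with edgeR 4.0.16 (quasi-likelihood, robust) over all 24 libraries and 3 groups, with Benjamini-Hochberg adjustment over 13847 genes and calls at an adjusted p under 0.05. CPM is TMM-scaled, marker sums are plain CPM, and log2 CPM has a prior count of 2. Intervals are approximate, from the SE. The fit was tested on simulated data. Paralog ratios (counts plus 0.5) had exact permutation tests. Alternatives used DESeq2 1.42.0, limma 3.58.1, other scalings and filters, a replicate block, an immune marker covariate, deposited FPKM (plus 1 or 0.1) and each library left out.

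Members and gene lists were chosen with earlier results of these data known, so they are no independent evidence. Named members were fixed by rule: Rps6, Rpsa, the P proteins, the paralogs with their main copies, up to 3 called members per subunit and direction with a mean log2 CPM of at least 3, or otherwise the 2 smallest adjusted p. Rpl18, Rpl7a, Rpl4, Rpl39, Rps29, Rpl28 and Rps3 were named after their values were seen. Coding length is the longest coding sequence per gene, and GC content that of its transcript, in Gencode M21 (GRCm38). Starts come from RefSeq. No same-group pair of libraries agreed within sampling noise. Some results for single genes are not reported here.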

Additional observations from a re-analysis of the deposited data

Results flagged for a closer look

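In groups of 7 to 9 libraries, a value was picked out when its gap to the nearest other library was large for the group's range, which chance does in about 1 of 20 groups. Of 99 groups of values, 14 held such a library, against 4.95 by chance, and since members move together within a library these are not independent. ND+veh library 8 stood above its group in the share of counts on large subunit (0.983%, others 0.664% to 0.801%) and small subunit genes (0.685%, others 0.435% to 0.541%), and in log2 CPM of Rpl39 (6.56, others 4.84 to 5.46) and Rps27 (6.87, others 5.30 to 6.03). HFD+eRapa library 9 stood below its group in the family level (-0.52, others -0.04 to 0.43) and in log2 CPM of Rpl19 (7.24, others 7.67 to 8.05), Rpl22 (5.72, others 6.31 to 6.80) and Rps27l (6.08, others 6.72 to 7.27).

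HFD+veh library 6 had a large to small subunit ratio of 1.24 (others 1.44 to 1.54) and stood above its group in log2 CPM of Rpl22 (6.85, others 5.84 to 6.25), Rpl7 (9.04, others 7.45 to 8.10) and Rps4x (9.14, others 7.01 to 7.92). HFD+veh library 2 was low in Rpsa (7.63, others 8.09 to 8.30). HFD+veh library 3 had the lowest total of its group, 19847642 counts (others 21261951 to 22032787).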

How the results depend on the processing

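Counts of called members changed in size with the processing. Against the 7, 5 and 0 called in the diet, drug and combined comparisons, limma voom gave 1, 2 and 0. In the drug comparison DESeq2 gave 9, the immune marker covariate 3 and limma on FPKM with either pseudocount 2. Limma on FPKM also called 1 member lower in the combined comparison. Leaving out each library gave 6 to 12, 3 to 10 and 0 to 0 called. Without HFD+veh libraries 2 and 6 (chosen after seeing the data) 3 were called in the drug comparison. The cause was not tested. The summed share of counts differed by -0.06 percentage points (HFD+veh minus ND+veh) and -0.06 (HFD+eRapa minus ND+veh), and the share of summed FPKM by -0.56 and -0.49. The SD of the FPKM share was 0.409, 0.862 and 0.269 points in ND+veh, HFD+veh and HFD+eRapa. The members' median turned sign in the diet comparison without HFD+veh library 2 (0.05), HFD+veh library 1 (0.02) or ND+veh library 8 (0.04), in the drug comparison without HFD+veh library 2 (-0.02), and in several fits of the combined comparison. It lay between -0.21 and 0.05, -0.02 and 0.22, and -0.05 and 0.11 with each library left out.

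Among named genes, estimates near 0 in the combined comparison turned sign: Rps6 and Rplp0 with total counts (-0.050 and -0.049), on log2(FPKM + 1) (-0.13 and -0.081) and on log2(FPKM + 0.1) (-0.13 and -0.081), Rps6 with single libraries left out (from -0.033 to 0.081), and Rpsa (0.018) without ND+veh library 8 and HFD+eRapa library 9 (chosen after seeing the data).

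Replicate numbers are shared between groups. Same-numbered libraries deviated together in 5 of 7, 2 of 7 and 2 of 8 pairs, with mean correlations of 0.32, -0.24 and -0.20. In the diet comparison the correlations ran from -0.36 to 0.73. The main fit took the libraries as unpaired, and whether same-numbered libraries share an origin was not tested. The family level was lowest in HFD+veh at libraries 1 and 2 (-0.40 and -0.78) and highest in ND+veh at library 8 (0.55). An effect of library order was not tested. With a replicate block 9, 11 and 0 members were called, and the diet comparison's median was 0.0038. In the diet comparison 3 of 7 libraries correlated best with their own number.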
